A study of Mus musculus with 31 samples.

Results

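A set of 10 genes that set the pace of the G1 phase of the cell cycle were followed across sorted cells of the newborn mouse pancreas. They were the D-type cyclins Ccnd1, Ccnd2 and Ccnd3, the kinases Cdk4 and Cdk6, the E-type cyclin Ccne1, the CIP/KIP inhibitors Cdkn1a and Cdkn1b, and the INK4 inhibitors Cdkn2a and Cdkn2c. Members were chosen by gene symbol, as 10 of the 38283 genes listed in each expression table, by their known roles and with earlier results of these data known.

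D-type cyclins bind and activate the kinases CDK4 and CDK6 in response to growth factor signals, and these complexes phosphorylate the retinoblastoma protein, which frees E2F transcription factors. E2F factors in turn switch on Ccne1 and the genes of DNA replication, and cyclin E with its kinase completes the step into S phase. INK4 proteins bind CDK4 and CDK6 and keep D-type cyclins away, whereas p21 (the product of Cdkn1a) and p27 (the product of Cdkn1b) act on cyclin and kinase complexes. In the pancreas, CDK4 and the D-type cyclins are known for their part in the growth of beta cells after birth, and INK4a and ARF, the products of Cdkn2a, for their rise with age.

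The study asked how Igf2 made by the mesenchyme, the supporting connective tissue of the organ, bears on pancreatic growth. All mice were C57BL/6 at postnatal day 2, and dissociated pancreata were sorted by flow cytometry into YFP+ cells, labelled mesenchymal, and YFP- cells, labelled non-mesenchymal, before amplification of the RNA and sequencing. The H19DMD model compared H19DMDfl/+; Nkx3.2+/Cre mutants with H19DMD+/+; Nkx3.2+/Cre controls. H19DMD is the imprinting control region between Igf2 and H19, and its deletion is known to release the silent copy of Igf2. The Igf2 model compared Igf2+/fl; Nkx3.2Cre/+ mutants with Igf2+/+; Nkx3.2Cre/+ controls. Every group, controls included, carried Cre at 1 copy of Nkx3.2, a gene active in the pancreatic mesenchyme, and the study describes both changes as specific to mesenchymal cells. Values were available for 21 libraries: mesenchymal cells of 3 H19DMD controls and 4 H19DMD mutants, non-mesenchymal cells of 3 H19DMD controls and 4 H19DMD mutants, and non-mesenchymal cells of 4 Igf2-model controls and 3 Igf2 mutants. The other 10 libraries of the series, among them all mesenchymal libraries of the Igf2 model, were not analysed here. The labels do not say whether replicates came from separate animals, so the p-values measure the spread between these libraries, which may be technical. The models were deposited as separate tables whose scaling to each other is not known, so levels were tested only within a model.

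The targeted locus was read first as a check of the labels. Igf2 stood at 3849 ± 189 FPKM (fragments counted per transcript length and sequencing depth; SD, n = 3) in mesenchymal controls and at 7040 ± 800 (SD, n = 4) in mesenchymal H19DMD mutants, and H19 at 2446 ± 8.11 and 700.3 ± 123, in the direction the deletion is known to give. The non-mesenchymal H19DMD-model libraries held Igf2 at 48.2 ± 4.38 FPKM (SD, n = 3) in controls and 108 ± 50.9 (SD, n = 4) in mutants, and these groups overlapped. In non-mesenchymal libraries of the Igf2 model it was at 93.5 ± 33.8 FPKM in controls and 78.9 ± 61.9 in mutants, which does not check a deletion made in other cells. The summed FPKM of 9 mesenchymal markers was 3856 to 5163 in mesenchymal libraries and 21.3 to 134 in non-mesenchymal ones. Nkx3-2 itself was near 0 in both fractions, at a mean of 0.440 and 1.03 FPKM in mesenchymal controls and mutants and at group means of 0 to 0.804 in non-mesenchymal cells, with no library above 2.24. The 9 acinar markers summed to 554 to 1730 in mesenchymal and to 28484 to 102007 in non-mesenchymal libraries, with Ptf1a listed at 0 in every mesenchymal library. Endocrine, ductal and leukocyte marker sums were also higher in every non-mesenchymal than in any mesenchymal library, so the non-mesenchymal fraction is a mixture of cell types. In the H19DMD model the 5 endothelial markers summed to 43.2 to 57.5 FPKM in mesenchymal controls, 24.5 to 93.2 in mesenchymal mutants, 16.5 to 33.4 in non-mesenchymal controls and 15.5 to 23.0 in non-mesenchymal mutants, so markers of another cell type were present in the mesenchymal fraction too. In such bulk samples, fewer cells of a type and less RNA per cell cannot be told apart. From the steps between low values, 1 read over 1 kilobase of transcript was worth 0.208 to 0.458 FPKM in the H19DMD model and 0.132 to 0.342 FPKM in the Igf2 model. Ccnd1 thus rested on an estimated 145 to 3702 reads per library, whereas at the shortest transcript Ccne1 rested on 4 to 21 reads, Ccnd3 on 5 to 37 and Cdkn2c on 2 to 61. At their longest transcripts the estimates were 12 to 69, 40 to 279 and 5 to 135 reads.

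The promoters of 3 members are shown because of what their genes do in the values that follow: Cdkn1a had the largest difference between the fractions among the members, Ccnd3 was higher in mesenchymal cells of both genotypes, and Cdk4 was high in every group. Sequences are from RefSeq (GRCm38.p6), plus strand, 5′ to 3′, 250 bases up to the annotated start site. Capitals mark the p53 element in the upstream Cdkn1a promoter, GC boxes (GGGCGG on either strand) in the downstream Cdkn1a and Ccnd3 promoters, and E-boxes (CACGTG) in Cdk4.
Cdkn1a upstream start, chr17:29090729-29090978: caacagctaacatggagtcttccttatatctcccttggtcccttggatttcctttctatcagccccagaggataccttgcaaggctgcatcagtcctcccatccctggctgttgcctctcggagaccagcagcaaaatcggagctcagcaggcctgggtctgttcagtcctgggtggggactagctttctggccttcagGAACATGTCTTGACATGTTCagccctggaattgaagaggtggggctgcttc
Cdkn1a downstream start, chr17:29093519-29093768: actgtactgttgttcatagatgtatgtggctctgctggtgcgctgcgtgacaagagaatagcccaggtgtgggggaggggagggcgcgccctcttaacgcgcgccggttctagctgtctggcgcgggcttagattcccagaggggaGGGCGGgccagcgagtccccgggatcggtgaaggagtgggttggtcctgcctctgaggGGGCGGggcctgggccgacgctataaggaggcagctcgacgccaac
Ccnd3 downstream start, chr17:47593217-47593466: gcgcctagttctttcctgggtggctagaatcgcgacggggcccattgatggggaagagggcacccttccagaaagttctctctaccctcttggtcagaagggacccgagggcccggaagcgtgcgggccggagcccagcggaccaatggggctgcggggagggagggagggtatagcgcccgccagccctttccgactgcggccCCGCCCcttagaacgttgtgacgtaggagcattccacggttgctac
Cdk4, chr10:127063285-127063534: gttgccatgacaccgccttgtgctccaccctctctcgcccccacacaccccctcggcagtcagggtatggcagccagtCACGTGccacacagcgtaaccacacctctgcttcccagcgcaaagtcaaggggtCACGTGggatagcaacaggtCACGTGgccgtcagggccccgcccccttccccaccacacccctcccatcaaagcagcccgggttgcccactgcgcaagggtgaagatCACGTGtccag

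Motifs were searched on both strands in windows from 250 bases before to 50 after each start. Of the 10 members, 8 had at least 1 of these windows, 12 in all, and Ccnd1 and Ccnd2 had none. The p53 element was searched as a pair of adjacent half-sites of 10 bases with at most 1 mismatch over both. It was found in 1 of the 12 windows, as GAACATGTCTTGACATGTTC beginning 51 bases before the upstream Cdkn1a start, and in 0.0884% of all 32817 windows. The Cdk4 window held 4 E-boxes, beginning 172, 118, 98 and 11 bases before the start, and 0.0244% of all windows held at least 4. E-boxes stood in 3 of the 12 windows, those of Cdk4, Cdk6 and Cdkn2c, and in 7.15% of all windows. GC boxes stood in 9 of the 12 windows and in 35.6% of all. A Cdkn2c window was 44% G and C and the others 54.7% to 77%, against a median of 52.7% over all windows. The part of base content in the GC box counts was not tested. The E2F element, searched as TTTCGCGC or TTTGGCGC, and the CRE (TGACGTCA) stood in 0 of the 12 windows, against 0.814% and 1.79% of all. Other forms of the E2F element were not searched, so its 0 holds for the forms named alone. These matches describe letters in the reference and not bound sites.

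The fractions differed in the levels of Ccnd1, Ccnd3 and Cdkn1a in both genotypes. Cdkn1b was past the threshold in controls alone and Ccnd2 in mutants alone. In H19DMD-model controls, Ccnd1 was 4.83 times and Cdkn1a 5.76 times as high in non-mesenchymal as in mesenchymal cells, Cdkn1b was 1.97 times as high, and Ccnd3 was 4.16 times as high in mesenchymal cells. The kinases Cdk4 and Cdk6, with Ccnd2, Ccne1 and Cdkn2c, were not past the threshold. Differences were tested with limma on log2(FPKM + 1) over every gene averaging 1 FPKM or more in the compared libraries, with Benjamini-Hochberg adjusted p under 0.05 as the threshold. In this test 4 of the 9 members tested passed in controls, 1 higher and 3 lower in mesenchymal cells, when 22.6% of 16732 genes did, 12.4% higher and 10.3% lower. In H19DMD mutants 4 of 9 passed as well, 2 in each direction, against 28.6% of 16767 genes (13.5% higher, 15.1% lower). A member that did not pass is not thereby shown to be unchanged. Cdkn2a, listed at 0, could not be tested in any comparison.

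**Figure D1:**
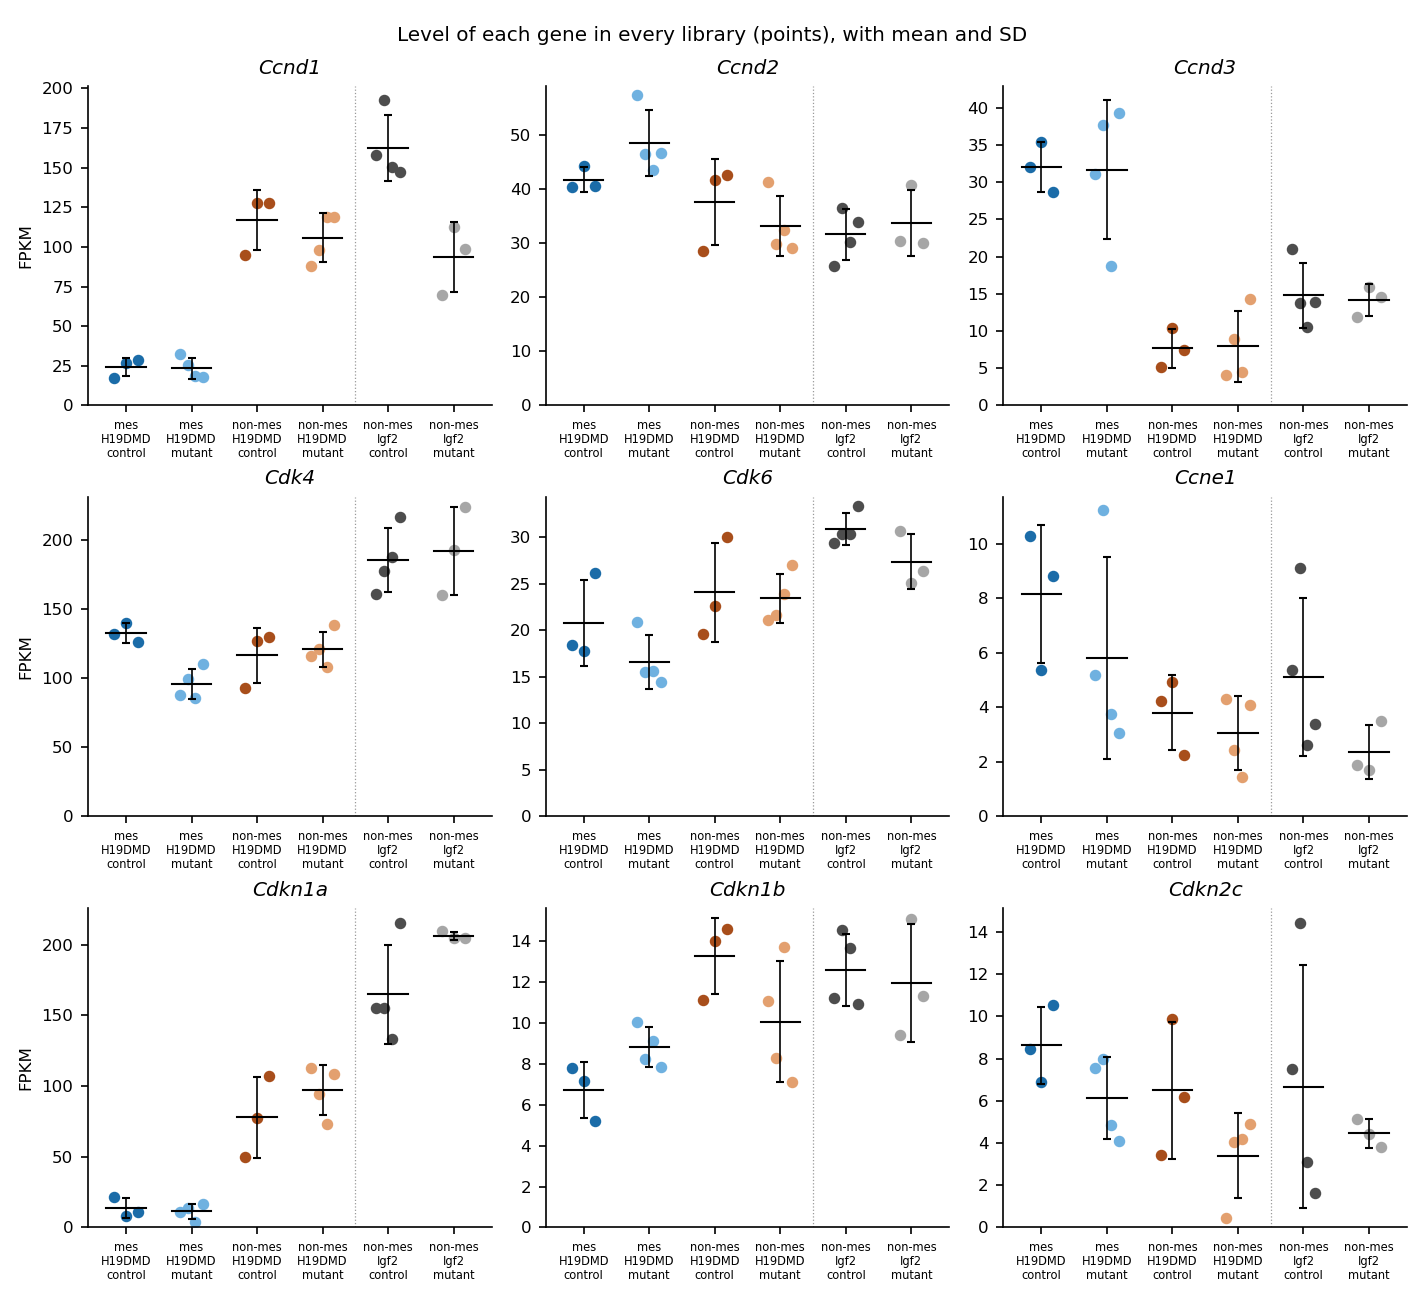
Level of 9 genes (FPKM, vertical axes from 0) in each of 21 libraries, grouped by cell fraction (mes, mesenchymal; non-mes, non-mesenchymal), model and genotype; points are libraries, lines are means and bars are SD. The dotted line separates the models, which come from separate tables. Ccnd1 and Cdkn1a stand low and Ccnd3 high in mesenchymal cells, while Cdk4 lies between 86.2 and 140.2 FPKM throughout the H19DMD model.

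Within a library FPKM sets levels of different genes side by side, with limits. The RNA was amplified, and the transcripts behind each value and any use of strand are not known. The part of these in the order of genes was not tested. In mesenchymal controls the order of means was Cdk4 (133 FPKM), Ccnd2 (41.8), Ccnd3 (32.0), Ccnd1 (24.2), Cdk6 (20.8), Cdkn1a (13.5), Cdkn2c (8.63), Ccne1 (8.15) and Cdkn1b (6.72). The first 3 steps of that order were free of overlap between libraries, whereas from Ccnd1 down each gene overlapped the next. Of those 3 steps the one from Ccnd3 to Ccnd1 was narrowest, at 28.7 against 28.4 FPKM. In non-mesenchymal controls Ccnd1 (117 FPKM) and Cdk4 (117) led with overlapping libraries, followed by Cdkn1a (78.0), Ccnd2 (37.6), Cdk6 (24.1), Cdkn1b (13.3), Ccnd3 (7.69), Cdkn2c (6.50) and Ccne1 (3.81). There Cdkn1a did not overlap Ccnd2, Cdk6 did not overlap Cdkn1b, and Cdkn1b did not overlap Ccnd3. Cdkn1a thus ranked 3 among the members in non-mesenchymal and 6 in mesenchymal controls, and Ccnd3 ranked 7 and 3.

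Ccnd1 (cyclin D1, chromosome 7, minus strand, 144929931 to 144939925 in GRCm38) is the D-type cyclin most readily induced by growth factors. In mesenchymal cells it was at 17.4, 26.8 and 28.4 FPKM in the 3 controls and at 32.2, 25.3, 18.3 and 17.7 FPKM in the 4 H19DMD mutants. Non-mesenchymal controls had 94.9, 128 and 128 FPKM and mutants 87.7, 97.9, 119 and 119 FPKM. Every non-mesenchymal library was thus above every mesenchymal one. The log2 difference, mesenchymal minus non-mesenchymal, was -2.24 ± 0.25 (SE) in controls (limma, adjusted p = 0.00177) and -2.16 ± 0.22 in mutants (adjusted p = 0.000168). Ccnd1 shares 1100 of its 4709 exonic bases with Oraov1 (LTO1) on the other strand. That gene averaged 4.19 to 9.56 FPKM over the groups, and the counting is not stated to have used strand.

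Ccnd2 (cyclin D2, chromosome 6, minus strand, 127125162 to 127152193) is the D-type cyclin that beta cells depend on for their growth after birth. It was at 40.4, 44.4 and 40.5 FPKM in mesenchymal controls and at 57.5, 46.6, 43.6 and 46.7 FPKM in mesenchymal mutants. Its non-mesenchymal values were 28.6, 41.7 and 42.7 FPKM in controls and 41.3, 29.8, 32.5 and 29.2 FPKM in mutants. The fractions overlapped in controls and did not in mutants, where 31.0% of genes tested did not overlap. The log2 difference was 0.17 ± 0.20 in controls (adjusted p = 0.606) and 0.54 ± 0.16 in mutants (limma, adjusted p = 0.0377). The call in mutants was lost on leaving out mesenchymal mutant 1, 2 or 4 or non-mesenchymal mutant 2, 3 or 4 (adjusted p = 0.0650 to 0.0966), and also with median-ratio scaling (0.0559) and without the variance trend (0.0592). Whether the fraction difference itself differed between mutants and controls was tested as an interaction, which gave 0.37 ± 0.25 (adjusted p = 0.857).

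Ccnd3 (cyclin D3, chromosome 17, plus strand, 47505051 to 47599691) had the opposite pattern to Ccnd1. It stood at 32.0, 35.4 and 28.7 FPKM in mesenchymal controls and at 31.1, 37.7, 18.8 and 39.3 FPKM in mesenchymal mutants. Non-mesenchymal controls had 5.18, 10.4 and 7.45 FPKM and mutants 4.10, 8.91, 4.45 and 14.3 FPKM. The fractions did not overlap in either genotype, with mesenchymal mutant 3 and non-mesenchymal mutant 4 closest to each other. The log2 difference was 1.97 ± 0.26 in controls (limma, adjusted p = 0.00374) and 1.97 ± 0.40 in mutants (adjusted p = 0.00697). Ccnd3 shares 361 exonic bases with Bysl, a ribosome biogenesis gene on the other strand, whose mean was 11.2 and 14.2 FPKM in mesenchymal controls and mutants and 4.75 and 4.71 FPKM in non-mesenchymal ones. Its part in the Ccnd3 values was not tested.

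The summed level of the D-type cyclins was 98.0 ± 8.37 FPKM (SD, n = 3) in mesenchymal controls and 162 ± 29.0 FPKM in non-mesenchymal controls, and its makeup differed. Ccnd1 supplied 24.5% ± 4.88 of the sum in mesenchymal controls and 72.2% ± 1.43 in non-mesenchymal controls. Ccnd2 made up 42.7% ± 1.96 and 23.1% ± 0.889, and Ccnd3 32.7% ± 3.14 and 4.67% ± 0.989. In mesenchymal controls Ccnd2 was therefore the most abundant D-type cyclin transcript and Ccnd1 the least, without overlap, whereas in mesenchymal mutants Ccnd1 and Ccnd3 overlapped. In non-mesenchymal cells Ccnd1 was the most abundant and Ccnd3 the least. H19DMD mutants had nearly the same makeup, with Ccnd1 at 22.4% ± 3.95 of the sum in mesenchymal and 71.8% ± 4.36 in non-mesenchymal cells (SD, n = 4). These shares restate the 3 levels and carry no test of their own.

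**Figure D2:**
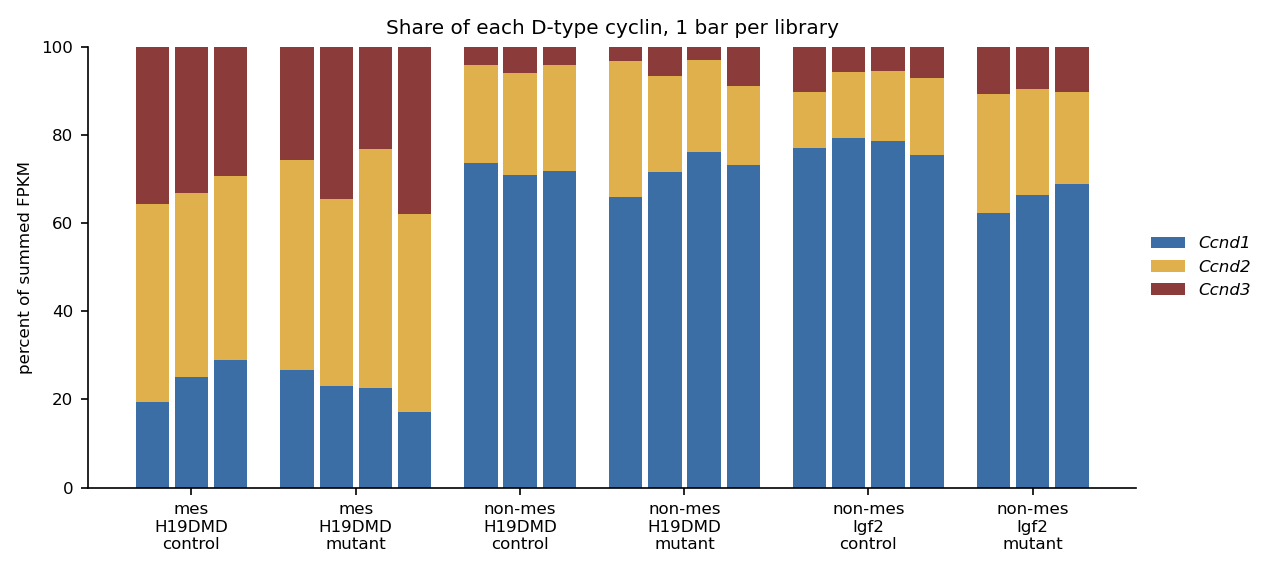
Percent of the summed FPKM of the D-type cyclins contributed by Ccnd1, Ccnd2 and Ccnd3, 1 bar per library, by cell fraction (mes, mesenchymal; non-mes, non-mesenchymal), model and genotype. Ccnd1 holds 17.1% to 29.1% in mesenchymal and 62.2% to 79.3% in non-mesenchymal libraries.

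Cdk4 (chromosome 10, plus strand, 127063534 to 127067920), a kinase partner of the D-type cyclins, was the most abundant member in mesenchymal cells. It stood at 132, 140.2 and 126 FPKM in mesenchymal controls and at 88.1, 99.5, 86.2 and 110.2 FPKM in mesenchymal mutants. Non-mesenchymal controls had 93.4, 127 and 129.6 FPKM and mutants 116, 121, 108 and 139 FPKM. The fractions overlapped in both genotypes, and the log2 difference was 0.20 ± 0.19 in controls (adjusted p = 0.496) and -0.33 ± 0.14 in mutants (adjusted p = 0.119). Of its exonic bases 641 lie over Tspan31 on the other strand, which averaged 21.8 to 34.9 FPKM over the groups.

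Cdk6 (chromosome 5, plus strand, 3341485 to 3531008), the other G1 kinase, ran lower than Cdk4 in every library. Its values were 18.4, 17.8 and 26.1 FPKM in mesenchymal controls and 20.9, 15.6, 15.6 and 14.4 FPKM in mesenchymal mutants. In non-mesenchymal cells it was at 19.6, 22.7 and 30.0 FPKM in controls and at 21.1, 21.7, 23.9 and 27.0 FPKM in mutants. The fractions overlapped in controls, and in mutants the highest mesenchymal library lay just under the lowest non-mesenchymal one. The log2 difference was -0.20 ± 0.24 in controls (adjusted p = 0.600) and -0.48 ± 0.16 in mutants (limma, adjusted p = 0.0615). Without mesenchymal mutant 1 the difference in mutants was -0.59 and passed (adjusted p = 0.0277). The ratio of Cdk4 to Cdk6 was 6.62 ± 1.60 in mesenchymal and 4.90 ± 0.650 in non-mesenchymal controls (SD, n = 3), with overlapping ranges.

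Ccne1 (cyclin E1, chromosome 7, minus strand, 38097984 to 38107534), the cyclin of the step into S phase and itself an E2F target, was a low transcript. Mesenchymal controls had 10.3, 5.36 and 8.81 FPKM and mutants 5.19, 11.2, 3.76 and 3.07 FPKM. Non-mesenchymal controls had 4.23, 4.94 and 2.26 FPKM and mutants 4.29, 2.43, 1.43 and 4.08 FPKM. The fractions did not overlap in controls, as for 39.9% of genes tested, and overlapped in mutants. The log2 difference of 0.93 ± 0.34 in controls did not pass (limma, adjusted p = 0.110), nor did 0.68 ± 0.41 in mutants (adjusted p = 0.258). At the few reads behind this gene, its 95% interval in controls ran from 0.10 to 1.76.

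Cdkn1a (chromosome 17, plus strand, 29090976 to 29100727) encodes p21, the inhibitor that p53 is known to induce. It was at 21.5, 8.39 and 10.7 FPKM in mesenchymal controls and at 11.2, 13.7, 4.05 and 16.3 FPKM in mesenchymal mutants. Non-mesenchymal controls had 49.7, 77.6 and 107 FPKM and mutants 113, 94.2, 73.3 and 109 FPKM. The lowest non-mesenchymal library was above the highest mesenchymal one in both genotypes. The log2 difference was -2.48 ± 0.43 in controls (limma, adjusted p = 0.00937) and -3.11 ± 0.38 in mutants (adjusted p = 0.000459), where the ratio of means was 8.58. With the replicate number as a block in the fit, the call in controls was lost (adjusted p = 0.0510). The interaction of -0.63 ± 0.60 did not pass (adjusted p = 0.885). Against the summed D-type cyclins, Cdkn1a stood at 0.143 ± 0.0852 in mesenchymal and 0.473 ± 0.113 in non-mesenchymal controls (SD, n = 3).

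Cdkn1b (chromosome 6, plus strand, 134920401 to 134925513) encodes p27, an inhibitor of quiescent cells whose level is set largely by protein turnover. Mesenchymal controls had 7.80, 7.17 and 5.19 FPKM and mutants 10.1, 8.24, 9.15 and 7.87 FPKM. Non-mesenchymal controls had 11.1, 14.04 and 14.6 FPKM and mutants 11.1, 8.30, 13.7 and 7.14 FPKM. The fractions were apart in controls and overlapped in mutants. The log2 difference was -0.89 ± 0.22 in controls (limma, adjusted p = 0.0333) and -0.14 ± 0.22 in mutants (adjusted p = 0.674). The call in controls was lost on leaving out any of the 3 mesenchymal controls or non-mesenchymal control 2 or 3 (adjusted p = 0.0561 to 0.106). It was also lost with the replicate number as a block in the fit (adjusted p = 0.0983). The interaction, 0.76 ± 0.30, did not pass (adjusted p = 0.755).

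Cdkn2c (p18, chromosome 4, minus strand, 109660876 to 109667189) and Cdkn2a (chromosome 4, minus strand, 89274471 to 89294653) are INK4 inhibitors. Cdkn2c was at 8.47, 6.88 and 10.5 FPKM in mesenchymal controls and at 7.56, 8.0, 4.85 and 4.08 FPKM in mutants. Its non-mesenchymal values were 3.42, 9.88 and 6.20 FPKM in controls and 0.461, 4.06, 4.21 and 4.89 FPKM in mutants. The fractions overlapped in both genotypes, with log2 differences of 0.44 ± 0.37 (adjusted p = 0.450) and 0.83 ± 0.47 (adjusted p = 0.226). With 1 library left out these were 0.10 to 0.75 and 0.36 to 1.03. Cdkn2a was listed at 0 in all 21 libraries. An exact 0 can be a failed estimate in these tables, since 2 to 10 protein-coding genes per group with a median above 10 FPKM were also listed at 0 in at least 1 library.

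**Figure D3:**
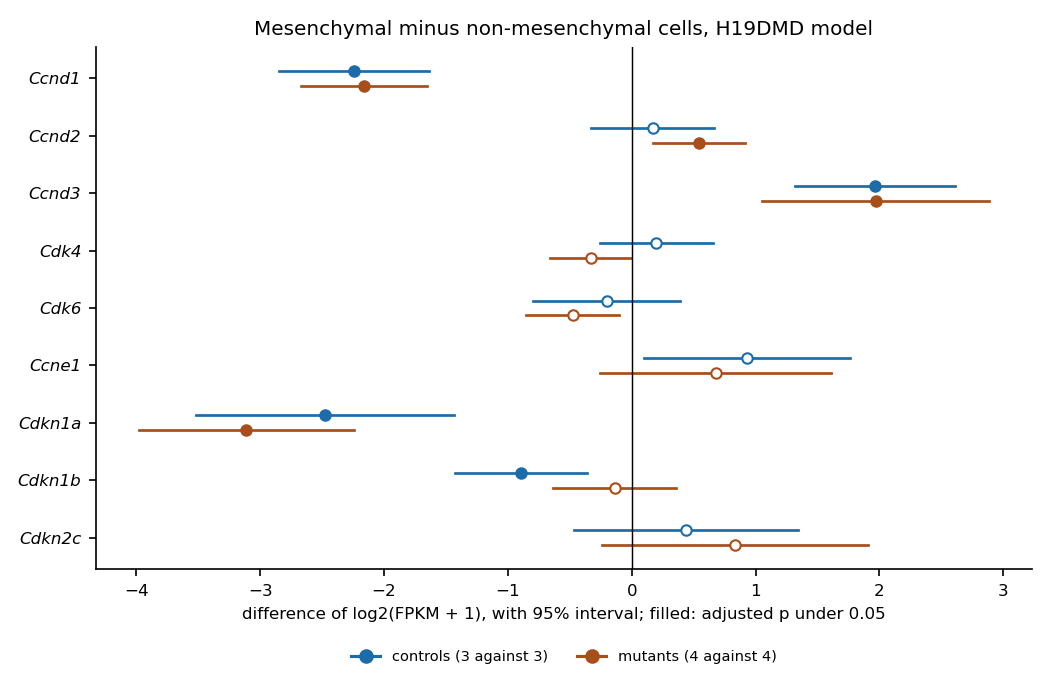
Difference of log2(FPKM + 1), mesenchymal minus non-mesenchymal cells of the H19DMD model, in controls (3 against 3 libraries) and mutants (4 against 4); points are estimates, bars 95% intervals, and filled points passed adjusted p 0.05. Ccnd1 and Cdkn1a lie to the left and Ccnd3 to the right in both genotypes.

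Other genes of the pathway were read from 5 lists. Their counts stand beside 22.6% of all genes past the threshold in controls and 28.6% in mutants, and the first 3 lists were below those shares in both. Of 10 further G1 to S regulators, 2 were higher in mesenchymal controls and 0 lower: Cdkn1c, the imprinted inhibitor p57, by 4.97 ± 0.25 on the log2 scale (adjusted p = 0.000148, 264 ± 54.3 against 7.49 ± 1.90 FPKM), and Cdkn2b, the INK4 gene next to Cdkn2a, by 1.82 ± 0.33 (adjusted p = 0.0115, 3.02 ± 1.01 against 0.132 ± 0.228 FPKM). Cdkn1c was also higher in mesenchymal mutants, by 3.88 ± 0.27 (adjusted p = 2.23e-05), as 1 of 9 tested. The abundant CIP/KIP transcript was thus Cdkn1c in mesenchymal and Cdkn1a in non-mesenchymal cells. Of 13 retinoblastoma-family and E2F genes, E2f8 was lower in mesenchymal controls (-1.22 ± 0.26), and in mutants E2f2 was lower (-1.69 ± 0.29) and E2f7 higher (0.73 ± 0.19). Of 9 genes for turnover of G1 proteins, Fbxo4 was higher in controls (1.07 ± 0.30), and in mutants Skp2, which marks p27 for degradation, was higher (0.96 ± 0.22) and its cofactor Cks1b lower (-0.63 ± 0.19). The limma adjusted p of these 6 genes ran from 0.00300 to 0.0494.

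Genes of the p53 list did not go one way with Cdkn1a. Of 12 in controls, Phlda3 (2.37 ± 0.22) and Eda2r (2.2 ± 0.32) were higher in mesenchymal cells, and Trp53inp1 (-2.60 ± 0.29) and Sesn2 (-1.36 ± 0.36) were lower, as Cdkn1a was. In mutants 3 were higher and 3 lower, with Zmat3 (0.54 ± 0.15) and Btg2 (-0.53 ± 0.12) added to the same 4 (limma, adjusted p from 0.000128 to 0.0441 over both genotypes). Of all genes tested, 12.4% were higher and 10.3% lower in mesenchymal controls, and 13.5% higher and 15.1% lower in mutants. The median over the list was -0.28 in controls and -0.15 in mutants, against 0.08 and -0.03 over all genes tested. Of 16 genes expressed in S, G2 and M phase, 0 passed in controls by limma, with 3 at an unadjusted p under 0.05 (median -0.26), and in mutants Ccnb2 (-1.12 ± 0.33) and Cenpf (-0.95 ± 0.29), mitotic genes, were lower in mesenchymal cells (median -0.52), a smaller share than the 15.1% of all genes.

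For each member, the gene with the most similar course over the 14 H19DMD-model libraries was sought among 10760 genes, by the root mean square (rms) difference of centred log2(FPKM + 1) values. Msi2 followed Ccnd1 at an rms difference of 0.261, when Ccnd1 itself varied by 1.131. Nxn followed Ccnd3 at 0.297 (own variation 1.08) and Fgfr3 followed Cdkn1a at 0.381 (own variation 1.52). For Cdk4 the closest gene was Eef1g at 0.126, against an own variation of 0.226. The others were Ppp1r2 for Ccnd2 (0.162), Atpif1 for Cdk6 (0.153), Itpk1 for Ccne1 (0.367), Tex9 for Cdkn1b (0.195) and Cnpy4 for Cdkn2c (0.409).

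Deletion of H19DMD in the mesenchyme left 0 of 9 members past the threshold in mesenchymal cells by limma, where 11 of 15856 genes (0.0694%) passed and 755 had an unadjusted p under 0.05, Cdk4 the 1 member among them. Cdk4 and Cdkn1b were the members whose mutants and controls did not overlap, as for 5.39% of genes tested. The 4 mutants had 86.2 to 110.2 FPKM of Cdk4 and the 3 controls 126 to 140.2, a log2 difference of -0.47 ± 0.15 (adjusted p = 0.927, exact permutation p = 0.0571). Cdkn1b was 7.87 to 10.1 FPKM in mutants and 5.19 to 7.80 in controls, a difference of 0.36 ± 0.20 (adjusted p = 0.927, exact permutation p = 0.0286, the smallest that 4 against 3 libraries allow). The differences of the other members lay between -0.52 (Ccne1) and 0.21 (Ccnd2), and 7 of the 9 were below 0, or 5 of 9 with median-ratio scaling, when 57.3% of all genes tested were below 0. The median over members was -0.27, against -0.07 over all genes tested. Of the 5 pathway lists 0 genes passed, with 3 further G1 to S regulators and 1 gene of the E2F list at an unadjusted p under 0.05. All 16 S, G2 and M phase genes had values below 0, with a median of -0.36, also with median-ratio scaling (-0.29).

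In non-mesenchymal cells of the H19DMD model, 0 of 9 members passed, against 11 of 16239 genes (0.0677%) and 868 with an unadjusted p under 0.05, 0 of them members. Mutants and controls overlapped for every member tested, as they did for all but 5.68% of genes. Cdkn1a, with a mean of 97.3 ± 17.9 FPKM in mutants and 78.0 ± 28.6 in controls, differed by 0.36 ± 0.28 (limma, adjusted p = 0.897), or by 0.075 to 0.62 with 1 library left out. Cdkn2c had the lowest estimate, -0.86 ± 0.56 (adjusted p = 0.894, -1.19 to -0.39 with 1 library left out), in which non-mesenchymal mutant 1 stood alone at 0.461 FPKM, a level of very few reads. For Cdk6 the 95% interval of the log2 difference ran from -0.47 to 0.42 and for Cdk4 from -0.34 to 0.47. Summed endocrine markers were 10163 to 19536 FPKM in these mutants and 18801 to 28426 in controls. Means in controls and mutants were 9110 and 5043 FPKM for Ins2, 7217 and 3912 for Gcg and 6477 and 3516 for Ins1. They were 1474 and 1442 for Sst, 74.4 and 69.6 for Chga, 16.9 and 12.7 for Neurod1, and 47.9 and 56.1 for Pax6. The part of these markers in the members' values was not tested. The difference between fractions in the response to the deletion passed for 0 of 9 members, and for 2 of 17105 genes (0.0117%), with 1087, of them 2 members, at an unadjusted p under 0.05. Those were Cdk4, with an interaction of -0.53 ± 0.22 (adjusted p = 0.755), and Cdkn1b, when the median over all genes was -0.11, or -0.00481 with median-ratio scaling. For Ccnd1 the interaction was 0.08 ± 0.34.

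Deletion of Igf2 in the mesenchyme was read in non-mesenchymal cells alone. Ccnd1 was the member whose genotypes did not overlap there. It was at 158, 193, 151 and 147 FPKM in the 4 controls and at 69.7, 113 and 99.0 FPKM in the 3 mutants. All mutants lay below all controls; groups were apart, in either direction, for 6.02% of genes tested. The log2 difference, mutant minus control, was -0.80 ± 0.20, with a 95% interval from -1.28 to -0.32 and a ratio of control to mutant means of 1.73. It did not pass over all genes (limma, adjusted p = 0.919, and 0.765 to 0.976 over the alternatives), and the exact permutation p of 0.0286 is the smallest that 4 against 3 libraries allow. In this comparison 0 of 9 members passed, against 11 of 17441 genes (0.0631%), with 921 at an unadjusted p under 0.05, Ccnd1 the 1 member among them.

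Other measurements also differed between the genotypes in these libraries. The 9 acinar markers summed to 28484 to 40652 FPKM in controls and to 82447 to 95190 in mutants, without overlap. Ctrb1 held most of this sum, with means of 31373 and 82883 FPKM. The mean log2 level of the 9 markers was also apart, at 6.91 to 7.53 and 8.11 to 8.33, although Ptf1a and Bhlha15 overlapped. The 5 leukocyte markers summed to 268 to 393 in controls and 395 to 827 in mutants, barely apart. Among them Laptm5 alone separated, and their mean log2 levels overlapped (5.17 to 6.04 and 5.91 to 6.62). The acinar markers thus took a larger part of the total in every mutant library, and their part in the Ccnd1 value was not tested. Ccnd2 and Ccnd3 differed by less than the spread between libraries. Ccnd2 was at 25.9, 36.6, 30.2 and 34.0 FPKM in controls and 30.5, 40.8 and 30.0 in mutants, a difference of 0.09 ± 0.19. Ccnd3 was at 21.0, 13.8, 10.6 and 13.9 FPKM and at 11.8, 15.99 and 14.6, a difference of -0.03 ± 0.25. Ccnd1 accordingly made up 75.5% to 79.3% of the summed D-type cyclins in controls and 62.2% to 68.9% in mutants, and the sum was 209 ± 23.7 FPKM (SD, n = 4) and 142 ± 28.9 (SD, n = 3).

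**Figure D4:**
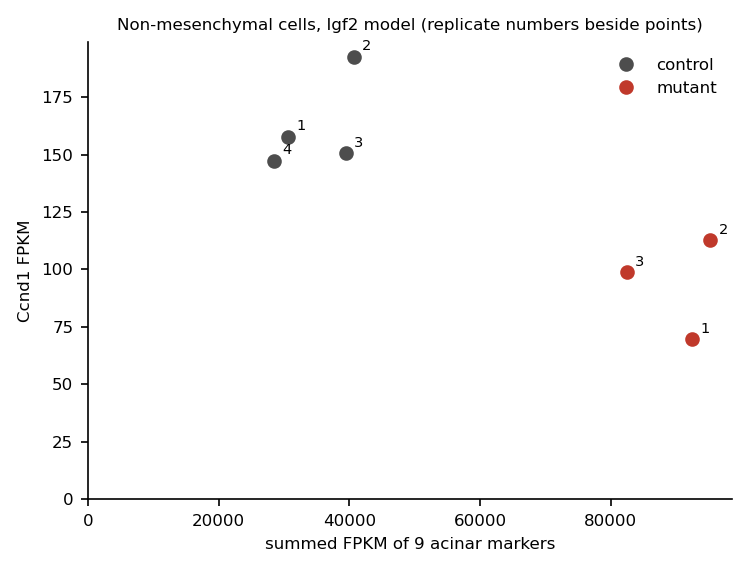
Ccnd1 level (FPKM, vertical axis) against the summed FPKM of 9 acinar markers (horizontal axis) in the non-mesenchymal libraries of the Igf2 model, 4 controls and 3 mutants, both axes from 0. The genotypes separate on both axes: mutants hold 69.7 to 113 FPKM of Ccnd1 and controls 147 to 193. Ctrb1 supplies most of the acinar sum.

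The kinases showed no such separation in the Igf2 model. Cdk4 was at 161, 178, 188 and 217 FPKM in controls and at 160.1, 193 and 224 in mutants, a difference of 0.04 ± 0.17 with a 95% interval from -0.37 to 0.45. Cdk6 was at 29.4, 30.3, 30.4 and 33.3 FPKM in controls and 30.7, 25.1 and 26.4 in mutants (-0.17 ± 0.14). Both genes' groups overlapped. Ccne1 was at 5.38, 9.10, 2.62 and 3.38 FPKM in controls and 1.89, 1.69 and 3.51 in mutants, with overlap and a wide interval (-0.79 ± 0.41, 95% interval -1.76 to 0.19). Its ratio of control to mutant means was 2.17, which the log2(FPKM + 1) scale understates for so low a gene. Cdkn1a was tightly grouped in mutants, at 209.7, 205 and 205 FPKM, while controls had 155, 155, 133 and 215 (0.35 ± 0.18, limma, adjusted p = 0.919). Control 4 was above all mutants, so the groups overlapped. Cdkn1b was at 11.2, 14.5, 13.7 and 10.96 FPKM in controls and 9.40, 15.1 and 11.3 in mutants (-0.09 ± 0.21). Cdkn2c spread from 1.63 to 14.4 FPKM within controls alone and stood at 5.12, 4.44 and 3.79 in mutants (-0.18 ± 0.59).

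Of the 5 pathway lists 0 genes passed in the Igf2 model, with 1 gene of the E2F list at an unadjusted p under 0.05. The 16 S, G2 and M phase genes had a median of -0.34, with 13 below 0, against -0.03 over all genes tested, and 13 were also below 0 with median-ratio scaling. In non-mesenchymal cells of H19DMD mutants the median was -0.14, with 12 below 0, or 14 with median-ratio scaling. Of all genes tested, 52.9% were below 0 in the Igf2 model and 43.9% in non-mesenchymal cells of the H19DMD model. None of the 16 genes passed the threshold in any mutant comparison.

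**Figure D5:**
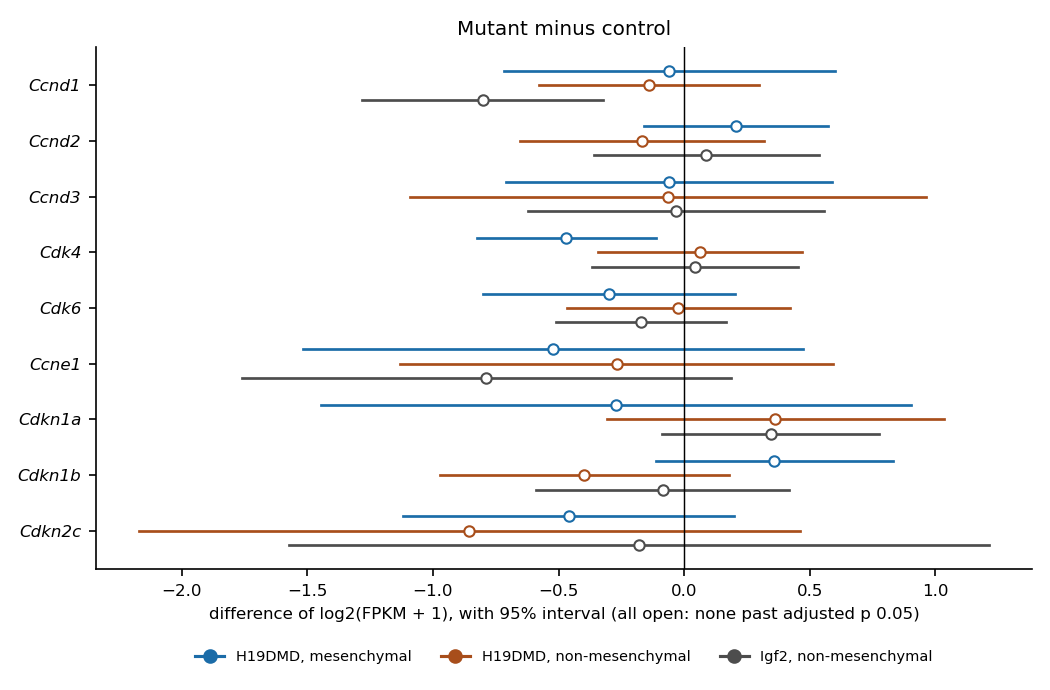
Difference of log2(FPKM + 1), mutant minus control, for 9 members in 3 comparisons: H19DMD deletion in mesenchymal cells (4 mutants, 3 controls) and in non-mesenchymal cells (4 and 3), and Igf2 deletion in non-mesenchymal cells (3 and 4). Points are estimates and bars 95% intervals, all points are open because 0 passed, and the interval of Ccnd1 in the Igf2 model (-1.28 to -0.32) and of Cdk4 in mesenchymal H19DMD mutants (-0.83 to -0.11) do not reach 0.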

How the data were processed

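RNA of sorted mesenchymal and non-mesenchymal cells was amplified and sequenced as single-end reads, per the labels' protocols. The authors deposited 1 table of FPKM values per model. Per the submitters' processing notes, TopHat2 (2.0.8), Cufflinks (2.2.1) and GRCm38 were used; the annotation, any use of strand and the scaling are not given in the sources used here. All value columns were matched to labelled libraries. Members and lists were chosen with earlier results of these data known.

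Comparisons used limma (3.58.1, R 4.3.3; two-sided moderated test with a trended prior variance) on log2(FPKM + 1), which understates changes of low genes. Genes averaging under 1 FPKM in a comparison were left out, with Benjamini-Hochberg adjustment over all of them at 0.05. Only the groups compared entered a fit, and the interaction used all 4 H19DMD-model groups. In a check on simulated data the test missed most genes given a log2 change of 1, in every comparison. Exact permutation tests were two-sided. All 10 members are named, with, per list and comparison, up to 3 genes per direction of largest change among those past the threshold, and for likeness the closest gene with a mean of at least 5 FPKM. Alternatives were other pseudocounts (0.1, 0.5) and filters (none, 5 FPKM), median-ratio scaling, features of at least 200 bases, no variance trend, all groups in the fit, a replicate block and leaving out each library. Correlations across genes between replicates of a group were 0.623 to 0.716, and no pair had identical tables. Gene positions are from GENCODE M21 (GRCm38).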

Additional observations from a re-analysis of the deposited data

How the results depend on the processing

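The alternatives gave 904 further fits of 54 tested member values, of which 8 had passed the threshold. None of those 8 changed sign, and 5 passed under every alternative: Ccnd1 and Ccnd3 between fractions in both genotypes, and Cdkn1a in mutants. For Cdkn1b in controls and Ccnd2 in mutants calls were lost under the settings named with their values. Same-number correlations of deviations between genotypes were -0.0543 to 0.0509. Between fractions they were 0.0108 to 0.0821, against -0.0681 to 0.0243 for different numbers. These values are small but all above 0, so whether replicate numbers pair the fractions is not settled. With the replicate number as a block, 2 members passed between fractions in controls in place of 4 (Cdkn1a adjusted p = 0.0510, Cdkn1b 0.0983), and all-gene counts went from 11 to 7 (mesenchymal H19DMD), 5 (non-mesenchymal H19DMD) and 2 (Igf2). With all groups of the table in the fit the H19DMD counts were 5 and 1; this fit could not be made for the Igf2 model, which has no other group. The filter of 5 FPKM tested fewer genes and gave 2448 in place of 3785 between fractions in controls and 3148 in place of 4802 in mutants. Median-ratio scaling turned the balance in controls, with 1894 genes higher and 2035 lower in mesenchymal cells, in place of 2067 and 1718. The interaction count of 2 became 6 with a pseudocount of 0.1 and 6 with no filter. Leaving out 1 library gave 13 to 27 and 14 to 34 genes for H19DMD in mesenchymal and non-mesenchymal cells, 14 to 37 for Igf2 and 2 to 9 for the interaction. The cause of these changes was not tested.

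Signs changed in 44 fits of 17 values, all of them values that had not passed. With median-ratio scaling mesenchymal H19DMD values became 0.0172 (Ccnd1) and 0.0160 (Ccnd3), Cdk4 in non-mesenchymal H19DMD cells -0.00182 and Ccnd3 in the Igf2 model 0.00936; with the block Ccnd1 became 0.0539 and Cdk4 -0.00360. Leaving out 1 library gave these ranges. In mesenchymal H19DMD cells they were -0.27 to 0.0664 (Ccnd1), -0.18 to 0.16 (Ccnd3) and -0.54 to 0.11 (Cdkn1a). In non-mesenchymal H19DMD cells they were -0.37 to 0.16 (Ccnd3), -0.0887 to 0.15 (Cdk4) and -0.16 to 0.14 (Cdk6). In the Igf2 model they were -0.0525 to 0.16 (Ccnd2), -0.17 to 0.14 (Ccnd3), -0.0726 to 0.17 (Cdk4), -0.25 to 0.0599 (Cdkn1b) and -0.58 to 0.27 (Cdkn2c). Between fractions they were -0.0144 to 0.27 (Ccnd2, controls) and -0.27 to 0.0131 (Cdkn1b, mutants). For the interaction they were -0.13 to 0.22 (Ccnd1), -0.22 to 0.31 (Ccnd3), -0.58 to 0.00323 (Ccne1) and -0.0740 to 0.73 (Cdkn2c). At the shortest transcript Ccne1, Ccnd3, Cdkn2c, Cdk6 and Cdkn1a had libraries with an estimated 13 reads or fewer, and the part of depth in their values was not tested.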
